A study of Rattus norvegicus with 17 samples.

Results

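The immediate early genes described here are a set of 10, chosen by name: Fos, Fosb, Fosl1, Jun, Junb, Egr1, Egr2, Atf3, Ier2 and Ier3. They were looked up by gene symbol in a table of 17251 genes measured in the meibomian gland (MG), the sebaceous gland of the eyelid margin that secretes the lipid of the tear film. Of the 10, 8 were listed and tested, and Junb and Ier2 were not analysed here. RNA was sequenced from 17 female rats aged 10 to 12 weeks. The 4 groups were Control WT (n = 4), Control P1.hMR (n = 5), UVB WT (n = 3) and UVB P1.hMR (n = 5). WT rats were wild-type littermates on the Sprague-Dawley background, and P1.hMR rats carried the human mineralocorticoid receptor gene NR3C2 under its own P1 promoter, which acts in all tissues that express the receptor and not in the gland alone. UVB rats received UVB light on the upper eyelids on 5 days. The eyelids of UVB rats were shaved, and no shaving was stated for control rats, so that shaving and UVB cannot be told apart. The time from the last exposure to dissection and any handling of single rats were not given in the sources used here.

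Immediate early genes are transcribed within minutes of a stimulus without new protein synthesis, and most of their transcripts are short-lived. Fos, Fosb, Fosl1 and Jun encode subunits of AP-1, a dimeric transcription factor that responds to growth factors, stress and ultraviolet light in epithelia. Egr1 and Egr2 encode zinc finger transcription factors, Atf3 a stress-induced bZIP factor that can pair with Jun proteins, and Ier3 a regulator of survival signalling. Since a stimulus as brief as handling or dissection can induce several of these genes, their values were read rat by rat as well as by group.

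The 250 bases upstream of the start of the transcript were available in a RefSeq table (assembly GRCr8) for 6 of the 10 genes. No entry was found for Fos, Jun, Atf3 and Ier3. Fosl1 and Egr2 are shown because they were the members that changed with UVB, and Egr1 is set beside Egr2 because both belong to the same family. Capitals mark matches to a CArG box, the element bound by serum response factor, or to TGACGT, the core of a cyclic AMP response element (CRE), read on either strand. The Fosl1 window lies at chr1:212183635-212183884 on the forward strand, and the Egr2 window at chr20:21054442-21054691 on the reverse strand.
Fosl1: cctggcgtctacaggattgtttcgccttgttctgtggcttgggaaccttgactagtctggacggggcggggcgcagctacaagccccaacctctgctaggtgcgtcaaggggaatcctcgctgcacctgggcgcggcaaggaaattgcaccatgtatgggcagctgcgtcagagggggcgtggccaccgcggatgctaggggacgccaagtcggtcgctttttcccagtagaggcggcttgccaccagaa
Egr2: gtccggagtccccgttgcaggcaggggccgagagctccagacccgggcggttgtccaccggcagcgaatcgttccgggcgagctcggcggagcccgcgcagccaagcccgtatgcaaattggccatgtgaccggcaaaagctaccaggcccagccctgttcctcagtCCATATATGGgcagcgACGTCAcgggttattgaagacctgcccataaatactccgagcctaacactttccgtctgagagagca

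The Egr2 window held 1 CArG box at positions -83 to -74 from the start and 1 CRE core at -67 to -62. The Egr1 window held a CArG box and a CRE core at the same positions. It also held a further CArG box at -105 to -96 and a further CRE core at -136 to -131. The stretch from -110 to -51 is given for both, at chr18:26736968-26737027 (forward strand) for Egr1 and chr20:21054492-21054551 (reverse strand) for Egr2, and 25 of its 60 positions were identical when the stretches were set side by side without gaps.
Egr1, -110 to -51: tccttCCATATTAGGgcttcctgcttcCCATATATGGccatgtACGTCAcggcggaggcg
Egr2, -110 to -51: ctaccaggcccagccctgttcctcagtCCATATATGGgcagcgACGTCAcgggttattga
A CArG box was present in 1.5% and a CRE core in 6.95% of the 33469 rat promoter windows of the same length. The Fosl1 and Fosb windows held neither, and they also held no match to the AP-1 motif TGANTCA (6.34% of windows) or to the EGR motif GCGNGGGCG (4.29%). These matches describe letters only, and the starts used for the Egr2 and Fosb windows are not the outermost starts of the annotated genes. The expression values were made on another assembly, rn7.

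The libraries did not stand apart in the number of genes detected. Between 12372 and 12737 genes reached 1 TPM, a share of all transcripts in the library that accounts for transcript length, in each rat. The transgene NR3C2 was listed at 0 in all WT rats, and it ranged from 5.31 to 9.31 TPM in the P1.hMR rats, as labelled. The rat's own receptor gene, Nr3c2, had means of 16.2 TPM in Control WT and 10.4 TPM in Control P1.hMR rats. Control WT rat 1 had 25.9 TPM. Under UVB the means of Nr3c2 were 8.45 TPM in WT and 7.21 TPM in P1.hMR rats. Whether the summed RNA of both receptor genes differed between genotypes was not tested. All 10 markers of the meibocyte, the lipid-producing cell of the gland, were detected, with a summed level of 17238 to 22597 TPM in control rats and 14911 to 17629 TPM in UVB rats. The tissue also held skeletal muscle, whose 7 listed markers summed to between 1771 and 4144 TPM.

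All 8 listed genes were expressed in every rat. Their mean TPM over the 17 rats, was 55.7 for Ier3, 49.1 for Egr2, 36.0 for Egr1, 27.8 for Jun, 14.8 for Fos, 8.97 for Atf3, 5.59 for Fosl1 and 2.45 for Fosb. The ranges over rats of genes next to each other in this order overlapped in each case. The highest rat exceeded the lowest 9.10-fold for Fosb, 7.33-fold for Fos and 6.64-fold for Atf3, but 2.08-fold for Egr2 and 1.62-fold for Ier3.

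**Figure D1:**
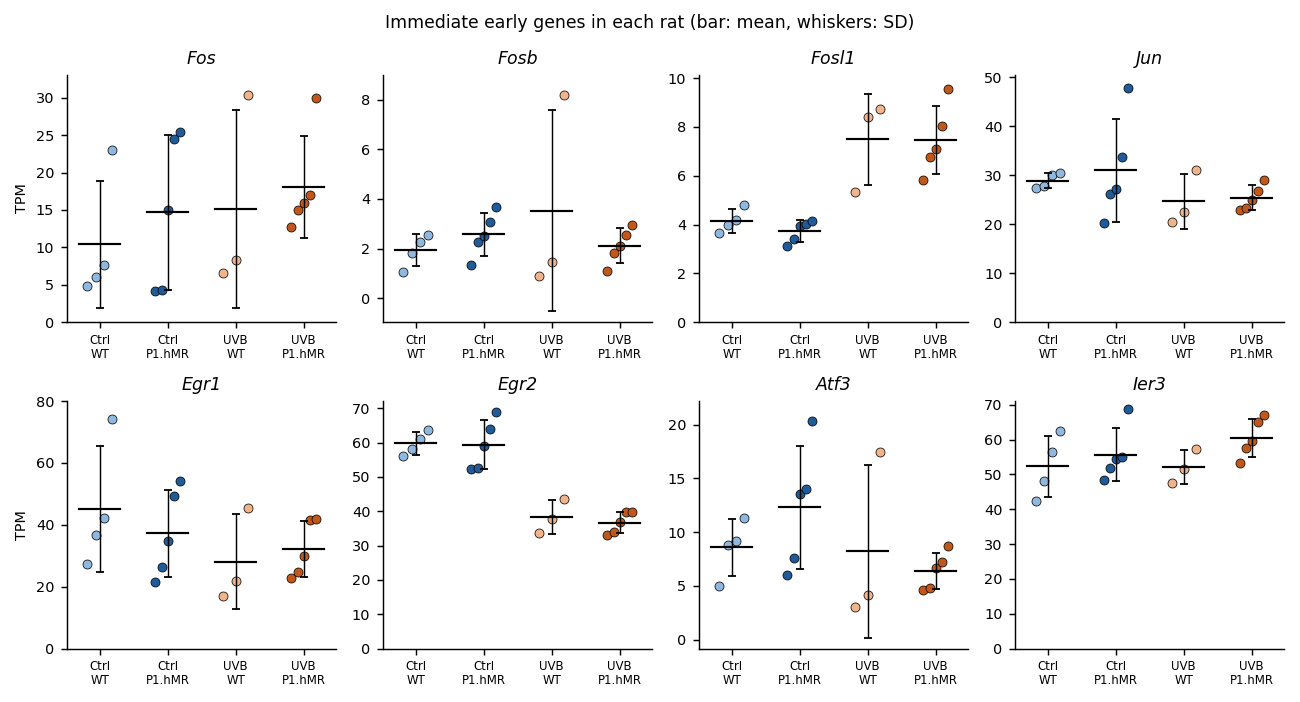
Expression (TPM, linear axis) of the 8 listed immediate early genes in each rat by group (n = 4 Control WT, 5 Control P1.hMR, 3 UVB WT, 5 UVB P1.hMR). Points are rats, horizontal bars are group means and whiskers are SD, which can reach below 0. The UVB rats lie above all control rats for Fosl1 and below all control rats for Egr2, while single high rats stretch the groups for Fos, Fosb and Atf3.

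Of the members, 2 moved with UVB in opposite directions and in both genotypes, and the other 6 were not called in any UVB comparison. Fosl1, which encodes FRA-1, a FOS-family subunit induced in wounded and proliferating epithelium, rose. Egr2 fell. Calls required a limma p, adjusted by Benjamini-Hochberg over all genes, under 0.05, and a change of 0.5 or more in size on log2(TPM + 1). At this threshold 2 of 8 members were called in WT, in P1.hMR and in the average of both genotypes, 1 higher and 1 lower each time. Of all 13105 genes tested, 7.91% were called in WT (3.92% higher and 3.98% lower), 10.8% in P1.hMR (5.05% higher and 5.71% lower) and 9.48% in the average (4.6% higher and 4.88% lower). The median absolute log2 fold change of the 8 members in the average was 0.47, beside 0.14 over all genes, and it includes members with wide errors.

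Among control rats Fosl1 measured 4.19, 3.66, 3.97 and 4.81 TPM in WT and 4.04, 3.13, 3.41, 4.13 and 3.95 TPM in P1.hMR. In UVB WT rats it measured 8.73, 5.34 and 8.39 TPM, and in UVB P1.hMR rats 5.84, 7.10, 9.54, 6.77 and 8.03 TPM. Every UVB rat was above every control rat, and 10.8% of genes tested had no overlap, in either direction. The means were 4.16 ± 0.486 (SD, n = 4) and 7.49 ± 1.87 (n = 3) in WT, a ratio of 1.80, and 3.73 ± 0.438 (n = 5) and 7.46 ± 1.40 (n = 5) in P1.hMR, a ratio of 2.00. The log2 fold change was 0.70 ± 0.153 (SE) in WT (limma adjusted p = 0.00484) and 0.83 ± 0.127 in P1.hMR (adjusted p = 0.000113). Averaged over genotypes it was 0.76 (95% confidence interval 0.55 to 0.97), and an exact two-sided permutation test within genotypes gave p = 0.000227, the smallest value its 8820 arrangements allow. The design allows no exact p under 0.0571 in WT and under 0.00794 in P1.hMR, and both genotypes reached that limit. In bulk tissue a larger share of cells that express a gene and more transcript per cell cannot be told apart.

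Egr2, a factor known from myelination, hindbrain patterning and immune cell differentiation, was the more evenly expressed member. Among control rats it measured 63.8, 56.2, 60.9 and 58.2 TPM in WT and 52.5, 64.0, 59.1, 68.8 and 52.4 TPM in P1.hMR. It measured 37.7, 33.8 and 43.6 TPM in UVB WT rats and 39.7, 39.8, 36.9, 33.8 and 33.1 TPM in UVB P1.hMR rats. Every UVB rat was below every control rat. The mean went from 59.8 ± 3.31 (SD, n = 4) to 38.4 ± 4.93 TPM (n = 3) in WT, 0.642 times the control level, and from 59.4 ± 7.19 (n = 5) to 36.7 ± 3.16 TPM (n = 5) in P1.hMR, 0.618 times the control level. The log2 fold change was -0.63 ± 0.101 (SE) in WT (limma adjusted p = 0.000599), -0.68 ± 0.0834 in P1.hMR (adjusted p = 1.76e-05) and -0.65 in the average (95% confidence interval -0.79 to -0.52). The exact permutation p again took the smallest value possible, 0.0571 in WT, 0.00794 in P1.hMR and 0.000227 over both. Values of all UVB rats that do not overlap those of all control rats were found for 10.8% of genes tested.

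Markers of other cells moved with UVB as well. The 6 listed hair shaft markers were all called lower in the average, with a summed level of 191 to 489.6 TPM in control rats and 116 to 266 TPM in UVB rats, and 3 of 5 melanocyte markers were called lower. Higher calls were made for 5 of 9 macrophage, 3 of 4 mast cell, 2 of 3 neutrophil, 2 of 4 T cell and 1 of 4 endothelial markers. Of 5 fibroblast markers 3 were called higher and 1 lower. Over all genes, 4.6% were called higher and 4.88% lower. Estimates were below 0 for the macrophage markers Cd68, Lyz2, Csf1r and Adgre1 (-0.32, -0.46, -0.05 and -0.06). So were those of the T cell markers Cd3e and Cd3g (-0.29 and -0.08). Among the neutrophil calls, S100a9 had a mean of 336 TPM in Control WT rats. The paper placed S100A9 protein in control human eyelids mainly in epithelium and possible immune cells, so its call need not come from neutrophils. None of the 4 basal keratinocyte markers was called, and their summed level was 7985 to 10194 TPM in control rats and 8255 to 13306 TPM in UVB rats. Krt14 and Itgb4 rose by 0.49 and 0.41 (limma adjusted p = 0.000248 and 0.000259), below the threshold of 0.5. The estimates of Col17a1 and Krt5 were -0.17 and -0.08. Of the 7 skeletal muscle markers 1 was called lower, and of the 10 meibocyte markers 2 were called higher and 1 lower. No listed marker was at 0 in all rats. The part of these cell types in the changes of Fosl1 and Egr2 was not tested.

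**Figure D2:**
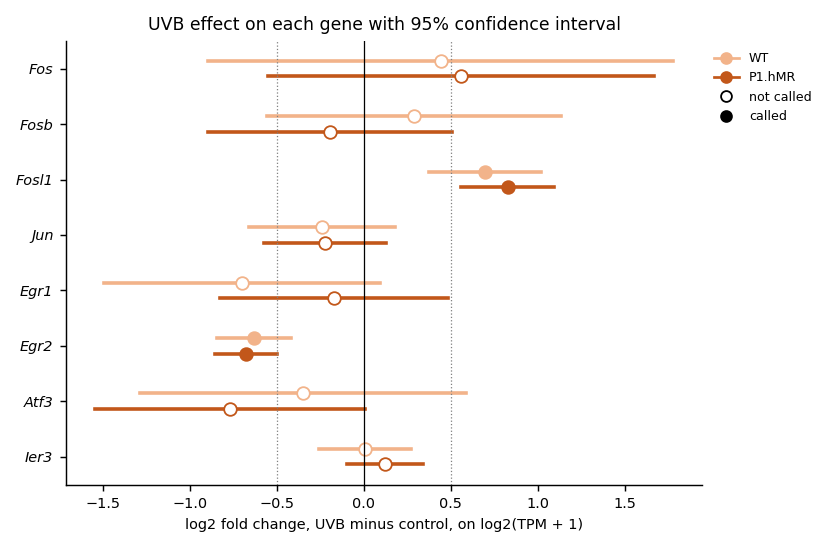
Log2 fold change of UVB against control rats in WT (light) and P1.hMR (dark) for each immediate early gene, on log2(TPM + 1), with 95% confidence intervals from limma. Filled points were called, open points were not, and dotted lines mark the fold change threshold of 0.5. Intervals lie wholly above 0 for Fosl1 and wholly below 0 for Egr2, and those of Fos, Fosb, Egr1 and Atf3 are several times wider.

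Fos, the best known member of the family, differed more between rats of a group than between groups. It measured 23.1, 7.62, 6.06 and 4.9 TPM in Control WT rats and 4.15, 25.4, 4.35, 24.5 and 15.0 TPM in Control P1.hMR rats. It measured 30.4, 6.64 and 8.37 TPM in UVB WT rats and 15.0, 16.99, 30.01, 12.7 and 15.95 TPM in UVB P1.hMR rats. High rats occurred in each group, with and without UVB, and the groups overlapped. The log2 fold change of UVB was 0.44 (95% confidence interval -0.89 to 1.78) in WT and 0.56 (-0.55 to 1.67) in P1.hMR, with limma adjusted p = 0.656 and 0.421. The averaged effect, 0.50, had an exact permutation p of 0.293, and its interval, -0.37 to 1.37, includes both no change and a change larger than that of Fosl1.

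Fosb, a further FOS-family subunit, was low throughout. It lay between 1.07 and 3.69 TPM in the 9 control rats and between 1.11 and 2.96 TPM in UVB P1.hMR rats, and it measured 8.19, 0.9 and 1.47 TPM in UVB WT rats. The value of 8.19 TPM came from UVB WT rat 1, and the other UVB WT rats were among the lowest of the series. The estimated log2 difference with UVB was 0.29 in WT and -0.19 in P1.hMR, with limma adjusted p = 0.644 and 0.673. Without UVB WT rat 1 the estimate in WT was -0.41.

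Jun, the main partner of the FOS proteins in AP-1, lay between 20.2 and 47.9 TPM in control rats and between 20.5 and 31.1 TPM in UVB rats. The lowest control rat was below all UVB rats, so the groups overlapped. Its averaged log2 fold change was -0.23 (95% confidence interval -0.51 to 0.04, limma adjusted p = 0.152, exact permutation p = 0.0864).

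Egr1, the EGR member that shares the CArG box at the position seen in Egr2, did not show the separation that Egr2 did. It measured 74.3, 42.1, 27.3 and 36.8 TPM in Control WT rats and 21.5, 49.2, 26.5, 54.3 and 34.9 TPM in Control P1.hMR rats. It measured 45.5, 16.8 and 21.7 TPM in UVB WT rats and 41.4, 29.8, 41.9, 24.7 and 22.7 TPM in UVB P1.hMR rats, and the groups overlapped. The log2 fold change was -0.70 (95% confidence interval -1.49 to 0.10) in WT and -0.17 (-0.83 to 0.49) in P1.hMR, with limma adjusted p = 0.198 and 0.694. The averaged estimate was -0.43 (adjusted p = 0.155), smaller in size than that of Egr2 and with an SE of 0.244 beside 0.0654.

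Atf3 measured 9.17, 11.3, 5.03 and 8.79 TPM in Control WT rats and 7.6, 13.6, 6.06, 20.3 and 14.01 TPM in Control P1.hMR rats. It measured 17.5, 3.06 and 4.13 TPM in UVB WT rats and 8.69, 7.2, 6.64, 4.63 and 4.79 TPM in UVB P1.hMR rats. UVB WT rat 1 had the second highest value of the series, and the other 2 UVB WT rats had the lowest. The log2 fold change was -0.35 in WT (limma adjusted p = 0.612) and -0.77 in P1.hMR (adjusted p = 0.109, exact permutation p = 0.0635), and the averaged estimate was -0.56 (95% confidence interval -1.17 to 0.05).

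Ier3 had the highest level and varied little. It lay between 42.5 and 68.7 TPM in control rats and between 47.7 and 67.0 TPM in UVB rats. The averaged log2 fold change was 0.06, with a 95% confidence interval of -0.11 to 0.24 that excludes the threshold of 0.5 in either direction.

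UVB WT rat 1, the highest of its group in Fos, Fosb, Jun, Egr1 and Atf3, decided several of these estimates. Without it, 4 members were called in the average over genotypes, where 9.76% of all genes were called. They were Fosl1, Egr2, Atf3, with a log2 fold change of -0.90 (limma adjusted p = 0.00514), and Egr1, with -0.64 (adjusted p = 0.0386). Atf3 was then also called in P1.hMR (adjusted p = 0.0340), where the rat is not part of the comparison and only the shared spread changed. The estimate for Fos in WT turned to -0.19 without it. UVB WT was left with 2 rats, and no label gives a ground to remove the rat.

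The second question of the design was whether the transgene of the human mineralocorticoid receptor changed these genes. No member was called for P1.hMR against WT without UVB or under UVB, nor for the interaction of genotype and UVB, and none reached an unadjusted p under 0.05 in limma. Over all genes 0.00763% were called without UVB, 0.0229% under UVB and 0% for the interaction, while 528, 1348 and 907 genes had an unadjusted p under 0.05. The log2 fold changes of the members ranged from -0.26 to 0.41 without UVB, from -0.21 to 0.48 under UVB and from -0.48 to 0.53 for the interaction. The intervals set how much could have been seen. Under UVB the difference between genotypes was 0.01 for Fosl1 (95% confidence interval -0.30 to 0.31) and -0.06 for Egr2 (-0.26 to 0.14), but 0.48 for Fos (-0.79 to 1.76). Ier3 had the smallest p of the members under UVB, with 57.6, 53.2, 64.9, 67.0 and 59.6 TPM in UVB P1.hMR rats and 51.5, 47.7 and 57.4 TPM in UVB WT rats (log2 fold change 0.21, limma adjusted p = 0.579, exact permutation p = 0.0714).

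**Figure D3:**
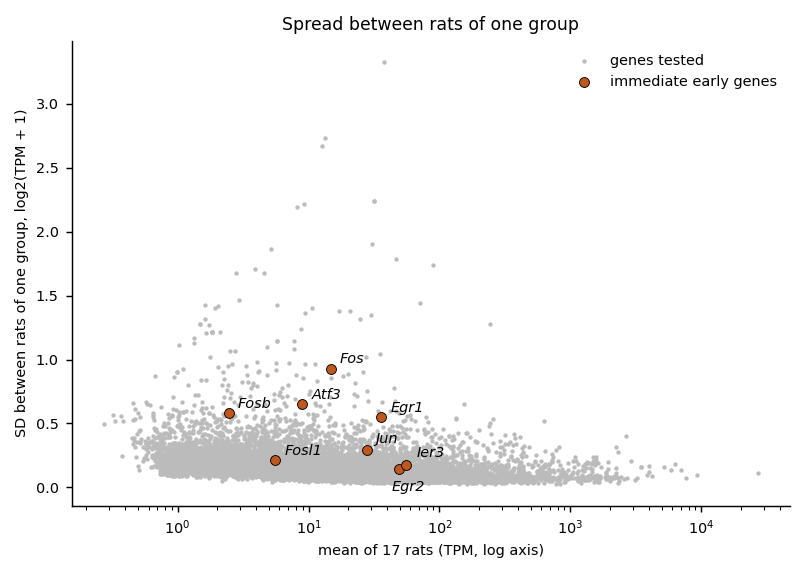
SD between rats of one group on log2(TPM + 1), against the mean over the 17 rats (TPM, log axis), for 13105 genes tested (grey) and the 8 immediate early genes (orange). Fos, Atf3, Fosb and Egr1 stand at 0.55 to 0.93, above more than 98% of genes, and Egr2 lies within the bulk at 0.14.

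The members separated by how much they varied between rats that had the same genotype and treatment. The SD within groups on the log2 scale was 0.93 for Fos, 0.65 for Atf3, 0.58 for Fosb and 0.55 for Egr1, beside a median of 0.13 over all genes tested. Counted from the most variable gene, these ranked 62, 134, 171 and 201 of 13105. Jun followed at 0.29 (rank 1193), Fosl1 at 0.21 (rank 2523) and Ier3 at 0.18 (rank 3715), and Egr2, at 0.14 (rank 5635), was close to the median gene. Beside the other members, Fosl1 and Egr2, which changed with UVB, had a small spread, as did Ier3, which was not called. Beside all genes tested, Fosl1 was variable, with a larger SD than 80.8% of them. For the more variable members the smallest change that could pass the test was larger.

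The variable members were high in the same rats. For Fos, Fosb, Jun, Egr1 and Atf3, a set of 5 chosen after their values were seen, Control WT rat 1 was the highest of its group in 4, Control P1.hMR rat 4 in 4, UVB WT rat 1 in 5 and UVB P1.hMR rat 3 in 4, and in these rats all 5 genes were above the mean of the group. Control P1.hMR rat 2 had a Fos level as high as rat 4, at 25.4 TPM, but its Jun was 27.2 TPM and that of rat 4 was 47.9 TPM. At the other end, UVB WT rat 2 was the lowest of its 3 rats in all 8 members, and Control WT rat 3 was the lowest in 4 of the 5. Such a high rat was present in both treatments and both genotypes. Ranking within a group always gives a highest rat, so this does not test an effect of UVB or genotype. Some margins were small, at 0.07 on log2(TPM + 1) for Jun in Control WT rat 1 and 0.08 for Atf3 in UVB P1.hMR rat 3.

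**Figure D4:**
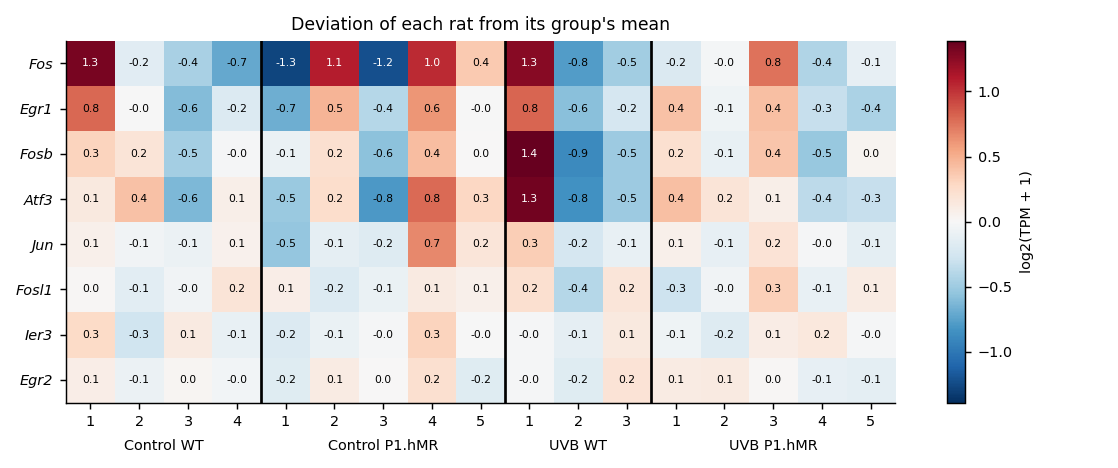
Deviation of each rat (columns, numbered within its group) from the mean of its group in log2(TPM + 1), for each immediate early gene (rows); red is above and blue below the group mean. The upper rows, Fos to Jun, are all above the group mean in 1 rat of each group. These are Control WT rat 1, Control P1.hMR rat 4, UVB WT rat 1 and UVB P1.hMR rat 3. Some of their cells are pale, with 0.07 for Jun and 0.13 for Atf3 in Control WT rat 1. In UVB P1.hMR rat 3 Atf3 is at 0.08. Control P1.hMR rat 2 is red in Fos (1.09) and Egr1 (0.47) but not in Jun (-0.13). The lower rows lie between -0.39 and 0.33.

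The deviations from the group means were correlated over the 17 rats, with p-values from 100000 permutations of rats within groups and adjusted over the 7 other members. Fos went with Egr1 (Pearson r = 0.897, permutation p = 0.00028, adjusted 0.00098; Spearman rho = 0.860, p = 0.00067, adjusted 0.00234) and with Fosb (r = 0.752, p = 7e-05, adjusted 0.00049; rho = 0.816, p = 0.00047, adjusted 0.00234). It also went with Atf3 (r = 0.755, permutation p = 0.00799, adjusted 0.0186; rho = 0.752, p = 0.00995, adjusted 0.0232). For Jun the correlation passed by r (0.699, permutation p = 0.0121, adjusted 0.0211) but not by rho (0.637, p = 0.0294, adjusted 0.0515).
Without Control WT rat 1 and UVB WT rat 1, whose Fos deviations were farthest from the median, and with the group means taken anew, a step chosen after seeing the data, r over the other 15 rats was 0.818 for Egr1 (unadjusted permutation p = 0.00567), 0.706 for Fosb (p = 0.00481) and 0.743 for Atf3 (p = 0.0247). For Jun it was 0.686 with a permutation p of 0.110, close to the r of 0.699 over all 17 rats. With fewer rats the p rose for each of these genes, so this step does not tell whether the pass of Jun rested on those rats. The correlations were positive among the 9 control rats and among the 8 UVB rats taken separately, with r = 0.932 and 0.860 for Egr1, 0.780 and 0.943 for Fosb, 0.745 and 0.853 for Atf3, and 0.629 and 0.900 for Jun. Ier3 (r = 0.437, rho = 0.397), Egr2 (r = 0.421, rho = 0.375) and Fosl1 (r = 0.284, rho = 0.228) did not pass, with permutation p of 0.140, 0.173 and 0.322 for r, adjusted p of 0.197, 0.202 and 0.322, and p of 0.174, 0.221 and 0.430 for rho, adjusted 0.244, 0.257 and 0.430.

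Other measures of the same rats were set beside this order. The mean deviation of the 7 skeletal muscle markers was 0.42 in Control P1.hMR rat 4, 0.40 in UVB WT rat 1 and 0.42 in UVB P1.hMR rat 3, in each case the highest of the group, but -0.24 in Control WT rat 1, the lowest of its group. The mean deviation of the 14 heat shock genes was also the highest of the group in Control WT rat 1 (0.05), Control P1.hMR rat 4 (0.06) and UVB WT rat 1 (0.07), and the second of the group in UVB P1.hMR rat 3 (0.0054), and it was small, at 0.07 or less in size in all rats. Glucocorticoid-induced genes, with 7 measured, were low in 3 of the 4 high rats (-0.31, -0.40 and -0.34) and at 0.17 in UVB P1.hMR rat 3. They were also low in rats with low Fos, at -0.43 in Control WT rat 3 and -0.40 in Control P1.hMR rat 3. Their highest value, 0.69, was in Control P1.hMR rat 2, whose Fos was 25.4 TPM. With the muscle markers as a covariate, Fosl1 and Egr2 were again the 2 members called in WT, in P1.hMR and in the average. The part of muscle and of heat shock genes in the order of the rats was not tested.

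Over 12650 genes ranked by their correlation with a member across the 17 rats after removal of group means, those nearest to Fos were Egr1 (r = 0.90), Zfp36 (0.84), Ccn1 (0.84), Dusp6 (0.83), LOC108348120 (0.82), Arl10 (0.82), Snu13 (0.82), Nfkbia (0.81), Wdr33 (0.80) and Fxyd1 (0.79). Zfp36 encodes a protein that destabilises short-lived transcripts, Dusp6 a phosphatase of ERK kinases, and Nfkbia the inhibitor of NF-kB. Nearest to Atf3 were Zbtb20 (0.92), Fosb (0.91), Sspn (0.90), Tpcn2 (0.86), Sik1 (0.84), Clec2l (0.84), Wipf1 (0.83), Egr1 (0.83), Rhobtb2 (0.83) and Nr4a1 (0.82). The first place for Egr2 was held by Klf10 (0.80) and that for Fosl1 by Elmsan1 (0.83), followed by Lor (0.82), which encodes loricrin of the cornified envelope. These are descriptions over the same 17 libraries.

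The wider pathway was described from lists of genes written with earlier results of this series known. Of 17 other AP-1 and related bZIP genes, 1 was called lower in the UVB average, beside 4.88% of all genes. This was Batf2, an interferon-induced bZIP factor, which fell from 3.34 ± 1.15 (SD, n = 4) to 0.753 ± 0.306 TPM (n = 3) in WT and from 2.96 ± 0.507 (n = 5) to 0.466 ± 0.236 TPM (n = 5) in P1.hMR. Its averaged log2 fold change was -1.36 (limma adjusted p = 4.35e-07). Of 33 other immediate early genes, 2 were called, beside 9.48% of all genes, with Cebpd, a C/EBP factor of inflammation, higher (0.84) and Gadd45g, a stress sensor, lower (-0.55).

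Of 17 feedback inhibitors of the same signals, 3 were called in the average, beside 9.48% of all genes. Dusp6 rose from 11.2, 9.42, 7.11 and 8.43 TPM in Control WT rats to 19.5, 13.5 and 17.7 TPM in UVB WT rats, with a log2 fold change of 0.84, and by 1.11 in P1.hMR. Spry4, an inhibitor of receptor tyrosine kinase signalling, rose by 0.76 in the average. Every UVB rat was at 3.95 TPM or more and every control rat at 2.61 TPM or less, and 10.8% of genes tested had no overlap. Dusp10, a phosphatase of p38 and JNK kinases, was lower (-0.53). Of 25 upstream kinases and factors, Rps6ka4 alone was called, at 0.54 in the average, again beside 9.48% of all genes.

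Of 19 AP-1 target genes of epithelium, 13 were called in the average, 12 higher and 1 lower, beside 9.48% of all genes, and the median log2 fold change of the 19 was 0.74, beside -0.00697 over all genes. In WT 10 were called and in P1.hMR 14, with 1 lower in each. Timp1, an inhibitor of matrix metalloproteinases, lay between 9.67 and 14.9 TPM in control rats and between 58.5 and 173 TPM in UVB rats, a log2 fold change of 2.99. Ccl2, the chemokine that draws monocytes, rose by 1.98, Mmp13, a collagenase, by 1.31, and Ptgs2, which encodes cyclooxygenase-2, by 1.29. The gene that fell was Ivl, which encodes involucrin of the cornified envelope, by 1.31. These genes also respond to other factors, several are expressed by leukocytes and fibroblasts, of whose markers some were called higher and 1, of fibroblasts, lower, and some were known to rise with UVB here when the list was written. Of 14 heat shock genes none was called in the average and 1 was called lower in WT. Their largest averaged changes, 0.45 for Hsph1 and -0.44 for Hspb8, had limma adjusted p = 3.98e-05 and 3.49e-06 but missed the threshold of 0.5. Of 7 glucocorticoid-induced genes Sgk1 alone was called, at a log2 fold change of -0.57, beside 9.48% of all genes called in either direction.

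**Figure D5:**
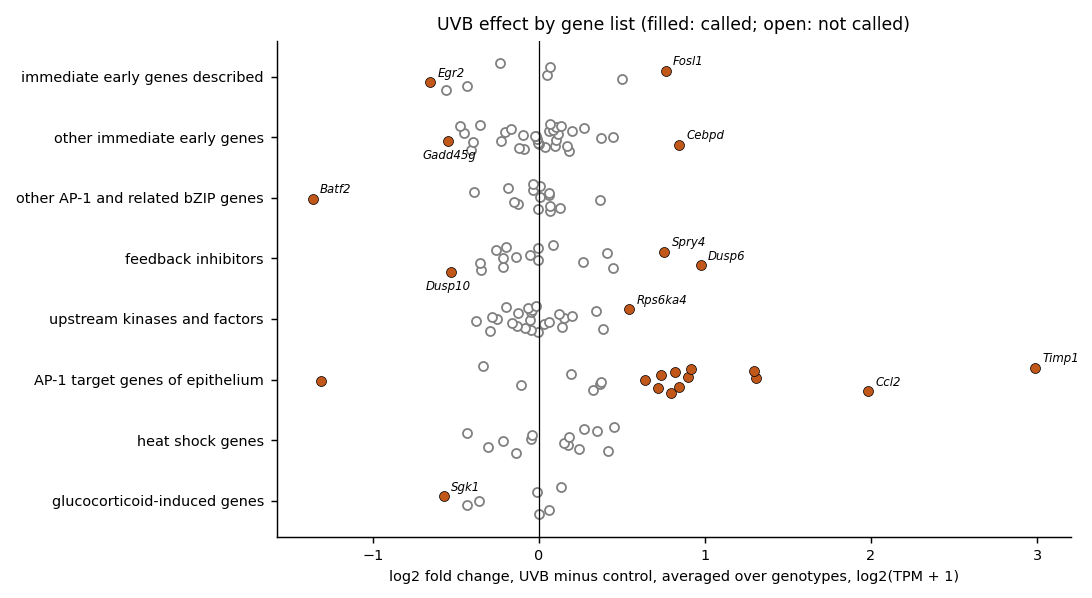
Log2 fold change of UVB against control, averaged over genotypes, on log2(TPM + 1), for the genes of each list (one point per gene; filled points were called, open points were not). The AP-1 target genes lie mostly to the right, with 12 of 19 called higher, while the immediate early genes and the other lists are spread about 0. Called genes are named except for the AP-1 targets with a log2 fold change under 1.5 in size. The plot leaves out 1 gene that is not reported here.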

How the data were processed

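RNA from the MG of 17 rats was sequenced, with 1 library per rat. Per the paper's methods the authors aligned reads to rn7 with STAR and quantified genes with RSEM, whereas the submitters' processing notes name FastQC, Trimmomatic, DRAGEN and Picard. They deposited TPM, written with a decimal comma and without further stated normalization. TPM keeps no depth, so no counting error could be given and precision comes from the spread between rats. Groups follow the deposited labels. No label states litters or cages. The paper's methods count the UVB material in eyes and the controls in rats. Its reporting summary says that both eyes, where analysed, were pooled as 1 sample. A sample could be 1 eye or both eyes of a rat, and this could differ between UVB and control rats. The lowest and highest summed TPM were 804378 and 840817.

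The 13105 genes that reached 1 TPM in 3 or more rats were fitted as log2(TPM + 1) with limma 3.58.1 in R 4.3.3, as 1 model of 4 group means with a variance trend. Fold changes on this scale understate those of low genes. Exact permutation tests and correlations used Python 3.11.15, numpy 2.4.6 and scipy 1.17.1, and are two-sided. The fit was tested on simulated data. The members and lists were chosen with earlier results of these data known. All listed members are named, as are the called list genes with the largest changes and the 10 genes nearest to Fos and Atf3. Ptgs2, Klf10, Elmsan1 and Lor were named after their values were seen. Alternatives covered the pseudocount, filters, scalings, thresholds, variance models, a muscle covariate, the replicate block and each rat left out. One gene of the list of AP-1 and related bZIP genes is not reported here.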

Additional observations from a re-analysis of the deposited data

Results flagged for a closer look

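Of 24 combinations of a gene and a group of 4 or 5 rats, 2 held a rat that stood apart by Dixon's criterion on TPM. Chance meets it in about 1 of 20 independent groups of normal values. The genes here were correlated and TPM need not be normal, so the count of 2 was not tested against chance. On log2(TPM + 1), the scale of the fits, such a gap is a smaller share of the range, and the criterion was not applied there. Fos in Control WT rat 1 was 23.06 TPM, and its gap to the next rat was 0.850 of the range of the group (n = 4). Fos in UVB P1.hMR rat 3 was 30.01 TPM, with a gap of 0.753 of the range (n = 5). Both rats were also above the group mean in Fosb, Jun, Egr1 and Atf3. The group UVB WT, with 3 rats, was too small for the criterion.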

How the results depend on the processing

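The calls of Fosl1 and Egr2 in each UVB comparison were kept under every alternative pseudocount, filter, scaling and variance model, the muscle covariate, the replicate block and each left-out rat, and were lost with a fold change threshold of 1 on the log2 scale, where 0 members were called in WT, in P1.hMR and in the average. Leaving out 1 rat gave 2 to 4 members called in the average, with 4 without UVB WT rat 1. Atf3 in P1.hMR was also called when only its 2 groups were fitted (limma adjusted p = 0.0459). The other members' estimates depended on single rats. Over the left-out rats, the UVB effect in WT ranged from -0.19 to 0.88 for Fos, -0.41 to 0.73 for Fosb, -1.02 to 0.0703 for Atf3 and -0.0870 to 0.0943 for Ier3, and the averaged effect of Fosb from -0.30 to 0.27. P1.hMR against WT without UVB ranged from -0.12 to 0.18 for Jun, -0.46 to 0.0111 for Egr1, -0.0705 to 0.0262 for Egr2 and -0.00019 to 0.18 for Ier3. Under UVB it ranged from -0.65 to 0.49 for Fosb, -0.19 to 0.12 for Fosl1, -0.0591 to 0.23 for Jun, -0.0175 to 0.67 for Egr1, -0.15 to 0.0336 for Egr2 and -0.43 to 0.66 for Atf3. The interaction ranged from -0.32 to 0.75 for Fos, -0.93 to 0.21 for Fosb, -0.0677 to 0.24 for Fosl1, -0.12 to 0.19 for Jun, -0.13 to 0.0497 for Egr2 and -0.84 to 0.25 for Atf3.

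Estimates near 0 changed sign elsewhere, and the cause was not tested. With the muscle covariate, UVB gave -0.0185 for Ier3 in WT and 0.00689 for Fosb in P1.hMR, and the interaction of Jun was -0.0074. Atf3 between genotypes under UVB was 0.0322 with a pseudocount of 0.1, 0.0134 with median-of-ratios scaling and 0.0786 with sample weights. With the replicate number as a block, the genotype difference of Egr2 without UVB was 0.0225, those of Fosl1 and Jun under UVB were -0.0437 and -0.0251, and the interaction of Jun was -0.0632, while 2 members were called in each UVB comparison as without it. The numbers only name rats. Correlations of same-numbered rats ran from -0.19 to 0.24, and 4 of 22 pairs exceeded 0.1. The fit to only the groups compared gives no averaged or interaction value. Depth is unknown, and groups of 3 to 5 rats limit what the variable genes could show.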
